A study of Mus musculus with 8 samples.

Results

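Nephron progenitors that had lost Smo were compared with progenitors that kept it, over all expressed genes. The 2 Smo KO and 2 Smo WT libraries were taken by their labels from the 8 libraries of the series. All were made from kidney cells of E18.5 mouse embryos that had been isolated by FACS. KO embryos had the genotype Smo c/c ; Six2GFPcre, in which both Smo alleles are conditional. WT embryos had the genotype Smo +/+ ; Six2GFPcre, so both groups carried the same transgene, which makes a fusion of GFP and Cre under the control of Six2. Cre therefore acts in cells that express Six2 and in their descendants, and a cell sorted soon after recombination can still hold older transcripts. The remaining libraries, Smo c/+ and Rosa26 SmoM2/+ embryos with the same transgene, were in neither of the compared groups. They entered the shared estimate of the spread, the choice of genes to test, the scaling and the trends and covariates described below. The labels do not say how many embryos a library holds or whether replicates came from separate litters, so p-values measure the spread between these libraries, which may be technical.

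Smo is the membrane protein of the Hedgehog pathway that acts at the primary cilium. When a Hedgehog ligand binds Ptch1, Smo is released from inhibition and Gli transcription factors switch on targets such as Gli1, Ptch1 and Hhip. Nephron progenitors are the Six2-positive mesenchymal cells that cap the tips of the ureteric bud. They either renew themselves or aggregate, turn on Fgf8, Wnt4, Pax8 and Lhx1 and become the epithelium of a nephron.

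Smo, at chr6:29735497-29761366 of GRCm38, was the gene to check the labels with. Its level in CPM, which are counts scaled to a library of common size, was 13.1 and 11.1 in the KO libraries and 363 and 375 in the WT libraries. The groups were far apart, with a log2 change of -4.93 (SE 0.21, edgeR adjusted p 7.4e-07). Of 11 Hedgehog pathway genes 5 fell and 2 rose, and when a trend over gene length described below was removed 4 fell and 2 rose. Gli1 lay at 5.98 and 2.83 CPM in the KO and at 33.6 and 28.3 CPM in the WT libraries (log2 change -2.81, edgeR adjusted p 0.000183). Gli2, Ptch1 and Hhip also fell, with log2 changes of -2.27, -1.61 and -1.36. The ligand coreceptors Cdon and Gas1 were the 2 that rose, by 0.88 and 0.68.

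Totals of listed counts were 4422305 and 4442697 in the KO and 10305398 and 9396539 in the WT libraries. A count of 3, used as the floor of detection, equalled 0.664 CPM in the KO and 0.327 CPM in the WT group, and covers counting error only. Across genes, log2 CPM correlated with r 0.974 between the KO libraries, 0.98 between the WT libraries and 0.94 to 0.948 between groups. Both KO libraries and WT replicate 1 had the expression pattern of male embryos, and WT replicate 2 that of female embryos. The progenitor label was checked with 11 marker genes, of which 6 were higher and 1 was lower in the KO libraries. Six2 lay at 1826 and 1475 CPM in the KO and at 1333 and 1132 CPM in the WT libraries (log2 change 0.42, edgeR adjusted p 0.06), so the label held in all 4 libraries. Of markers of other cells, the summed level of 10 stromal genes was 697 and 185 CPM in the KO and 539 and 347 CPM in the WT libraries, and KO replicate 1 held most of its excess in Col1a1, with 379 CPM against 32.9 CPM in replicate 2. The sum of 8 blood markers was highest in KO replicate 1, at 63.5 CPM, and lowest in the WT libraries, at 5.5 and 7.3 CPM, and 4 globin genes called higher were near-identical pairs with the same counts (Hba-a1 and Hba-a2, Hbb-b1 and Hbb-bs), which cannot be told apart. For 7 endothelial markers the sums were 27 and 19.4 CPM against 4.38 and 4.79 CPM. Only 2 of the 7 could be tested, Cldn5, called higher (log2 change 3.58), and another that was not called (0.625). These 2 summed to 23.9 and 17.4 CPM against 1.77 and 2.94 CPM. Of 9 collecting duct and ureteric bud markers 5 could be tested, with 2 lower and 0 higher. Their sums were 35.2 and 33.3 CPM against 40.1 and 41.2 CPM. Of 6 podocyte markers 4 could be tested, with 1 higher and 2 lower. Fewer cells of a type and less RNA per cell cannot be told apart in such bulk samples.

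Of 13459 genes tested, 3100 had an edgeR adjusted p under 0.05, which is 23% of them. In the KO libraries 1562 were higher (11.6%) and 1538 were lower (11.4%). These shares are the background against which the counts of each gene group below are set. A change of at least 2-fold was seen in 961 of the called genes (7.14% of those tested), 501 of them higher (3.72%) and 460 lower (3.42%). Both KO libraries lay above both WT libraries in 32.2% of the tested genes and below them in 29.8%. The self-test on simulated counts for this comparison recovered 64% of changes of 1 log2 unit and 86% of changes of 2 log2 units among 13459 genes. That simulation held no trend over gene length and changed far fewer genes than were called here. These shares need not hold for the data.

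The direction of change followed the length of the gene. Genes were put in 10 classes of about equal size by the length the authors deposited. In the shortest class, with genes of up to 1217 bases, the median log2 change was 0.36, and 26.6% of the genes were called higher against 1.56% called lower. In the longest class, with genes of at least 6614 bases, the median was -0.40, and 2.82% were called higher against 36.1% called lower. The medians of the classes between fell at every step, from 0.27 in the second to -0.23 in the ninth. Genes called higher had a median length of 2007.5 bases and genes called lower of 5061.5 bases, while the median of all tested genes was 3016 bases.

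The gradient was not carried by a single library. For the 4 pairings of a KO with a WT library, the median difference ranged from 0.23 to 0.47 in the shortest class and from -0.32 to -0.49 in the longest. The KO libraries differed from each other in the same way, by 0.18 in the shortest and -0.14 in the longest class, which is less than either differed from a WT library. The WT libraries differed from each other by -0.08 and -0.04 in these classes. With every library thinned to 4422305 counts the medians were 0.36 and -0.40. Over the tested genes the log2 change correlated with log2 length at r -0.287, a description across genes, which are not independent replicates.

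**Figure D1:**
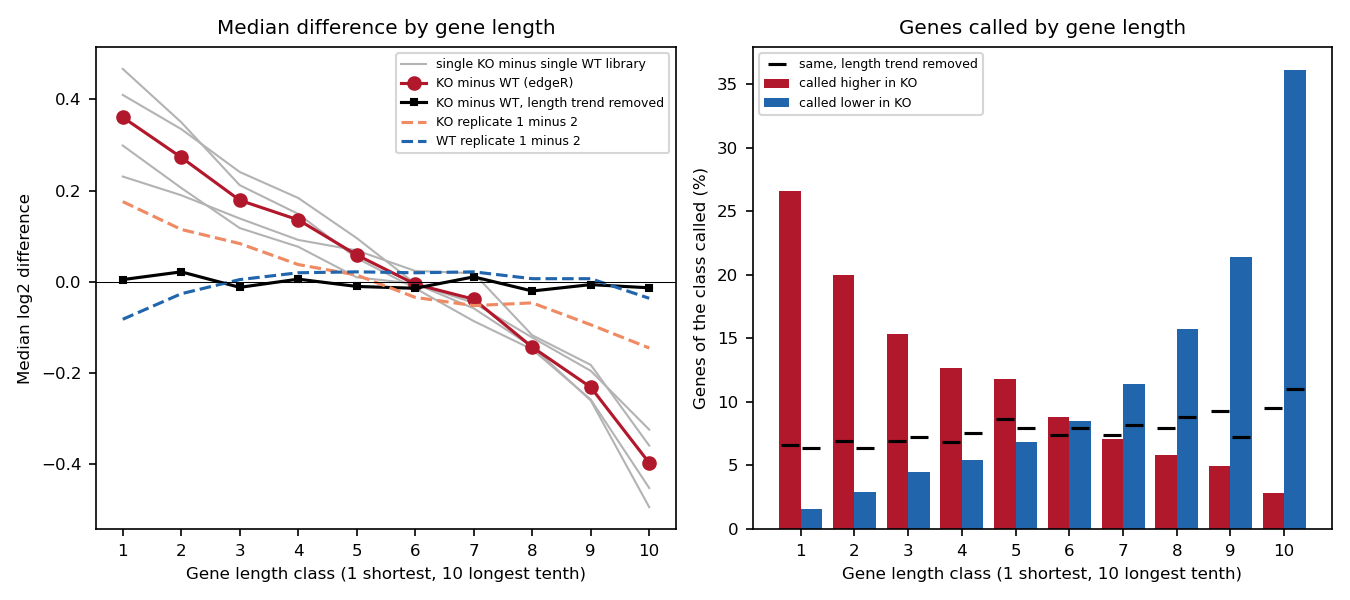
Left, median log2 difference in 10 gene length classes from shortest to longest, for KO minus WT, for each pairing of single libraries, for the replicates of each group, and for KO minus WT with the length trend of each library removed. Right, the share of genes in each class called higher (red) or lower (blue) in KO, with black marks for the same shares after removal; called-higher genes make up 26.6% of the shortest and 2.82% of the longest class.

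When the trend over length was removed from each library, 2101 genes were called (15.6%), with 1042 higher (7.74%) and 1059 lower (7.87%). Of these, 1722 were also called without the removal, all in the same direction, which is 55.5% of the first set and 82% of the second. Of the 961 called genes that changed at least 2-fold, 808 (84.1%) were called with the trend removed. Counts of each gene group are therefore given below both as fitted and with the length trend removed, while the log2 changes of single genes are as fitted unless stated. For many groups in which leaving out 1 library moved a count by more than 1.5 times, the counts of 4 further fits follow. These are the fits without KO replicate 1, KO replicate 2, WT replicate 1 and WT replicate 2, in that order, called the leave-one-out fits. Not every count that moved is given, so a group without them was not shown to be stable. Over all tested genes each of these 4 fits also called fewer genes, in both directions, than the fit of all libraries. The background shares above therefore do not apply to their counts, and a drop in a group can reflect that general loss of calls. The median log2 change of all tested genes was 0.03 as fitted, and with the removal it was 0.00.

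The genes with the largest rises and falls were ranked among called genes with an average log2 CPM of at least 1 whose levels did not overlap between groups, so genes with larger fitted changes at lower levels are not among them. Emx2, a homeobox factor required for kidney development, lies at chr19:59458690-59465357. It was at 14.4 and 15.5 CPM in the KO libraries and at 0.186 and 0.109 CPM, under the floor, in the WT libraries, which makes it at least 45.7-fold higher (edgeR adjusted p 0.000191). Lhx1, a LIM homeobox factor of the early renal vesicle at chr11:84517975-84525534, was at 62.2 and 122 CPM against 4.66 and 10.9 CPM. Lhx1 rose by 3.59 on the log2 scale (SE 0.42, edgeR adjusted p 0.00034), and Lhx1os, a transcript named as its opposite strand, moved with it by 3.58. Lhx1os lies beside Lhx1 at chr11:84525660-84535831, without overlap of these spans, though the annotation and strand setting of the counting are not given.

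Other rises of this size included a nephron patterning factor. Pou3f3, which is needed for the loop of Henle and distal tubule, was at 8.41 and 7.18 CPM against 0.653 and 0.218 CPM (log2 change 4.07, SE 0.61, edgeR adjusted p 0.00131). Car4, a membrane-bound carbonic anhydrase, rose by 4.36 (edgeR adjusted p 0.00614), with WT replicate 2 at 1.42 CPM and WT replicate 1 at 0.0932 CPM. The adenosine receptor Adora2a, the uncharacterised transcript 2610507I01Rik and Rnase12 rose by 4.09, 4.29 and 3.64.

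Among genes above that level, the largest falls beside Smo were in Sfmbt2, Foxd1 and Nxph1. Sfmbt2, a Polycomb-group protein, was at 1.33 and 0.653 CPM in the KO and at 26.4 and 24.1 CPM in the WT libraries (log2 change -4.65, SE 0.39, edgeR adjusted p 7.17e-05). Foxd1, a forkhead factor that marks the stromal progenitors around the cap, lies at chr13:98354245-98356705. It was at 12.8 and 3.7 CPM against 197 and 171 CPM (log2 change -4.48, SE 0.36, edgeR adjusted p 4.9e-05). Foxd1 was the member of the stromal check list called lower, while Meis1 of the same list was called higher and the other 7 tested members were not called. The secreted lipid carrier Pltp was at 6.64 and 2.4 CPM against 68.3 and 96 CPM, a log2 change of -4.18.

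Further large falls were in Wfdc1 (-3.71), Gm16070 (-3.49), Syne1 (-3.48), Itih2 (-3.45), Cobl (-3.44) and the membrane peptidase Mme (-3.33). All 24 genes of these lists of largest changes were still called in the same direction with the length trend removed. Syne1, the longest at 31327 bases, moved most with the removal, from -3.48 to -2.74.

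**Figure D2:**
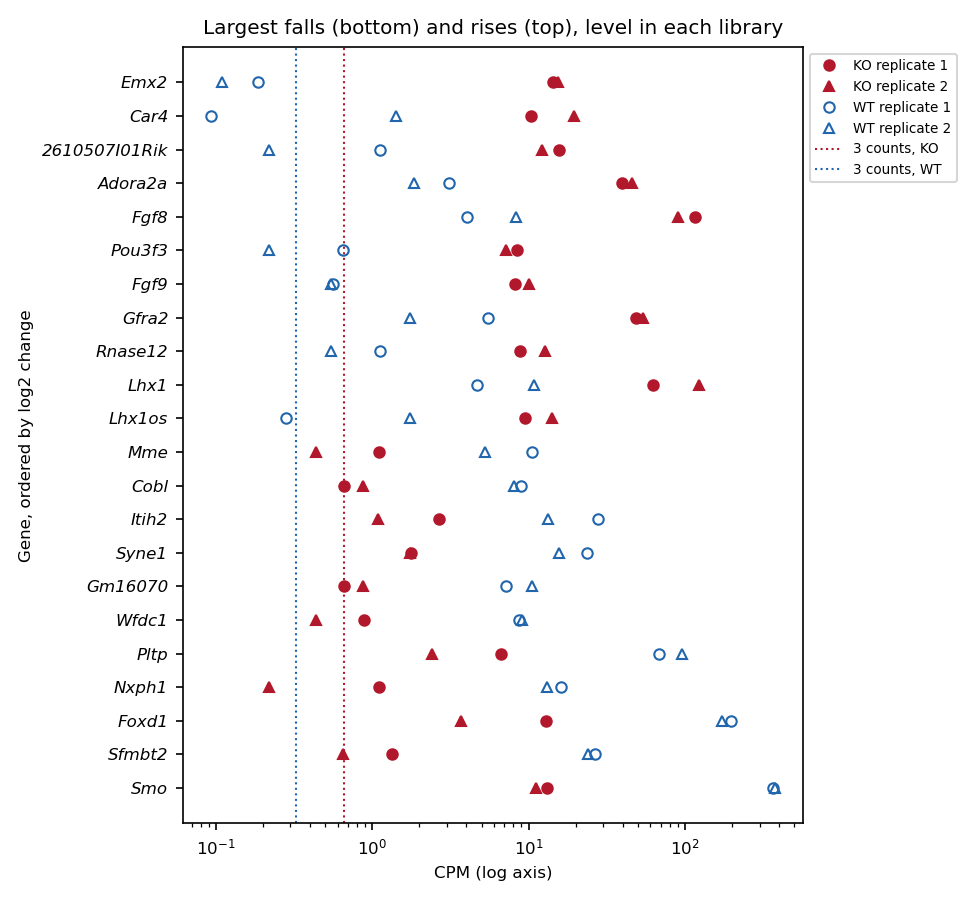
Level in each of the 4 libraries, in CPM on a log axis, of 11 of the 12 genes with the largest fall (lower part) and 11 of the 12 with the largest rise (upper part); red filled symbols are KO and blue open symbols WT, and dotted lines mark 3 counts. The genes were selected for no overlap between the groups, and Emx2 lies under the floor in both WT libraries.

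Among the listed ligands and receptors of fibroblast growth factors, which support progenitor survival and nephron formation, 2 ligands stood out. Fgf8, made by pretubular aggregates and lying at chr19:45736491-45742941, was at 116 and 89.9 CPM in the KO and at 4.01 and 8.28 CPM in the WT libraries (log2 change 4.09, SE 0.28, edgeR adjusted p 2.28e-05). Fgf9, a ligand that keeps progenitors undifferentiated, was at 8.19 and 10 CPM against 0.559 and 0.545 CPM (log2 change 4.0, SE 0.46, edgeR adjusted p 0.000305). Fgf20, which acts with Fgf9 in these cells, was not called, with 32.3 and 29.6 CPM against 37.2 and 15.5 CPM, and Fgf10 fell by 0.56. The decoy receptor Fgfrl1 rose by 0.47 and the adaptor Frs2 fell by 0.87, so 3 of 12 tested members rose and 2 fell. The list's median was 0.08. Fgf15, a ligand outside the list and chosen after its values were seen, was also called higher (log2 change 3.91). After length removal 4 rose and 1 fell, and the leave-one-out fits gave 2, 2, 4 and 3 higher and 1, 1, 1 and 2 lower.

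Targets and brakes of the ERK cascade downstream of these receptors were mixed, with 3 of 15 members higher, 3 lower and a median of 0.20. Ccnd1, the cyclin of G1, was at 361 and 452 CPM against 52.7 and 153 CPM (log2 change 1.99, SE 0.45, edgeR adjusted p 0.0106). The phosphatase Dusp5 rose by 1.29 and the inhibitor Spry1 by 0.64. Spred2, Spred3 and the ETS factor Etv5 fell by 0.56, 0.78 and 0.39. Dusp6, another feedback phosphatase, lay at 92.8 and 115 CPM against 88.8 and 92 CPM and was not called. After length removal 4 members rose and 2 fell, and the leave-one-out fits gave 3, 1, 2 and 3 higher and 1, 2, 1 and 2 lower.

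The GDNF family, through which the cap signals to the ureteric bud, changed in nearly all of its tested members. Gdnf itself was at 119 and 83.8 CPM in the KO and at 157 and 172 CPM in the WT libraries (log2 change -0.70, SE 0.21, edgeR adjusted p 0.0308). Gfra1, the coreceptor for Gdnf, was at 135 and 134 CPM against 526 and 589 CPM (log2 change -2.05, SE 0.15, edgeR adjusted p 3.42e-05). In contrast Gfra2, the coreceptor for neurturin, was at 48.3 and 54.2 CPM against 5.5 and 1.74 CPM (log2 change 3.78, SE 0.33, edgeR adjusted p 8.02e-05). Neurturin, encoded by Nrtn, and the coreceptor Gfra4 rose by 0.87 and 1.52. Ret, the receptor tyrosine kinase of the family and a marker of the bud, was under the floor in both KO libraries and at least 2.46-fold lower. With the length trend removed, 2 of the 7 members were called higher and 1 lower: Gdnf, Nrtn and Ret no longer passed the threshold. The leave-one-out fits gave 2, 3, 2 and 2 higher and 3, 2, 2 and 1 lower.

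Of 32 tested genes of BMP and TGF beta signalling, several ligands and target genes rose and several receptors fell. Bmp4, at chr14:46383525-46390669, was at 88.8 and 79 CPM in the KO and at 24.1 and 14.7 CPM in the WT libraries (log2 change 2.11, SE 0.24, edgeR adjusted p 0.000304). Bmp2, Gdf11 and the activin subunit Inhbb rose by 1.31, 0.75 and 2.44. The secreted BMP antagonist Nog was at 1.77 and 1.96 CPM against 6.06 and 7.3 CPM (log2 change -1.83, SE 0.40, edgeR adjusted p 0.00892).

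Direct targets of BMP signalling rose as well. Id1, an inhibitor of basic helix-loop-helix factors, was at 141 and 218 CPM against 39.7 and 55.4 CPM (log2 change 1.92, SE 0.35, edgeR adjusted p 0.00337). Id3 was at 392 and 471 CPM against 163 and 199 CPM, a log2 change of 1.25. The pseudoreceptor Bambi rose by 1.43, while Id2 was not called (log2 change 0.68, edgeR adjusted p 0.106).

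The receptors Bmpr2, Acvr1, Acvr2b, Acvr2a, Tgfbr1, Bmpr1a and Tgfbr2 all fell, by 1.03 to 0.66, as did Smad3, Smad4 and Smad5. In all, 7 members rose and 11 fell, with a median of -0.26. With the length trend removed 7 rose and 6 fell, and the median was 0.00. Nog, Bmpr2, Acvr1, Bmpr1a, Acvr2a and Smad4 were the 6 still called lower after the removal. With length kept, the leave-one-out fits gave 6, 6, 6 and 7 higher and 4, 8, 10 and 8 lower. Bmp7, the BMP that progenitors use to renew, lay at 283 and 266 CPM against 324 and 400 CPM and was not called.

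Wnt genes changed in both directions, with 7 of 36 higher, 9 lower and a median of 0.04. The falls were largest in secreted modulators. Rspo3, an amplifier of Wnt signals, was at 7.75 and 8.27 CPM in the KO and at 47.5 and 57.8 CPM in the WT libraries (log2 change -2.71, SE 0.28, edgeR adjusted p 0.000197). The antagonist Frzb was at 10.2 and 14.4 CPM against 69.5 and 71.1 CPM (log2 change -2.51, SE 0.29, edgeR adjusted p 0.000305), and Dkk3 and the ligand Wnt11 fell by 2.14 and 2.05. Wnt11 is also one of the collecting duct and ureteric bud markers above, and the part of bud cells in its fall was not tested. The R-spondin receptor Lgr6 was at 40.3 and 64.7 CPM against 7.83 and 13.1 CPM (log2 change 2.34, SE 0.36, edgeR adjusted p 0.0016). Sfrp2, Lef1, Fzd10 and Nkd1 rose by 1.40, 1.30, 1.17 and 1.05. Lef1 and Axin2 are both targets of canonical Wnt signals, yet Axin2 fell by 0.73, and Wnt4 was not called (log2 change 0.38, edgeR adjusted p 0.451). With the length trend removed 4 members rose and 5 fell, and the leave-one-out fits gave 4, 4, 5 and 4 higher and 4, 7, 7 and 6 lower.

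Of genes for retinoic acid handling 3 of 14 rose and 2 fell. The binding protein Crabp1 was at 15.5 and 16.1 CPM against 2.24 and 5.77 CPM (log2 change 2.00, SE 0.39, edgeR adjusted p 0.00512), and the synthesising enzyme Aldh1a3 fell by 1.27. After length removal 2 rose and 2 fell, and the leave-one-out fits gave 1, 2, 1 and 3 higher and 1, 0, 1 and 1 lower. Of 33 genes for cyclic AMP and protein kinase A, which restrains Gli activity, 5 rose and 7 fell, or 5 and 5 with the length trend removed. The leave-one-out fits gave 4, 4, 4 and 4 higher and 2, 6, 5 and 4 lower. The adenosine receptors Adora2a and Adora1 were among the rises. Adora2a was at 39.4 and 45.9 CPM against 3.08 and 1.85 CPM (log2 change 4.09, SE 0.28, edgeR adjusted p 2.28e-05) and Adora1 at 37 and 39.6 CPM against 17.6 and 9.59 CPM (log2 change 1.49, SE 0.38, edgeR adjusted p 0.0186). Of the phosphodiesterases on that list, which break cyclic AMP down, Pde4b, Pde4d and Pde7b fell and the other 4 tested were not called. Pde4b had no count in either KO library and was at least 3.33-fold lower, and Pde7b was at least 4.11-fold lower but not called with the length trend removed. Pde2a, a phosphodiesterase outside the list and chosen after its values were seen, went the other way, at 12.6 and 22.6 CPM against 1.86 and 2.72 CPM (log2 change 2.94, edgeR adjusted p 0.00158).

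Of 19 Hippo genes 6 fell and 1 rose, and after length removal 3 fell and 1 rose. The giant cadherin Fat1, 14627 bases long, was at 275 and 393 CPM against 709 and 1040.0 CPM (log2 change -1.39, edgeR adjusted p 0.00113) and was at -0.83 with the removal. Tead1 and Wwtr1, which act at the end of the pathway, fell by 0.84 and 0.75 and were also called lower then. Fat4, of 16107 bases, fell by 1.16 as fitted but was not called with the removal (-0.57), nor were Lats1 and Amotl1. Cyr61, a target gene, rose by 1.43. In the leave-one-out fits 4, 6, 6 and 6 were lower.

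Genes of DNA replication were often higher in the KO libraries. Of 40 members 18 were called higher and none lower, and 37 of 40 had a log2 change above 0, with a median of 0.50. Thymidylate synthase Tyms was at 52.9 and 73.1 CPM in the KO and at 30 and 36 CPM in the WT libraries (log2 change 0.93, SE 0.18, edgeR adjusted p 0.00418). Thymidine kinase Tk1 was at 46.1 and 43.5 CPM against 21.4 and 28.3 CPM. Mcm6, a subunit of the replicative helicase, was at 264 and 310 CPM against 161 and 201 CPM (log2 change 0.67, SE 0.14, edgeR adjusted p 0.00803), and the sliding clamp Pcna rose by 0.71. The polymerase alpha subunits Pola2 and Pola1 rose by 0.70 and 0.61. After removal of the length trend 12 rose, none fell and the median was 0.40. Leaving out WT replicate 1 or KO replicate 2 left 5 and 8 called higher, and leaving out KO replicate 1 or WT replicate 2 left 13 and 15.

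Many replication genes carry sites for E2F factors, which switch them on at the start of S phase, and the promoters of 2 called members are printed to show such sites. The 8-base forms TTTGGCGC and TTTCCCGC were searched on both strands of the 300 bases from 250 before to 50 after each start in the RefSeq table for GRCm38.p6. At least 1 was found in 10 of the 32 replication genes with an entry (31.2%), in 486 of the 27025 genes of the table (1.8%) and in 3.46% of the tested genes with an entry. Of the replication genes called higher, 3 of the 14 with an entry held it (21.4%), so it was not more frequent among the called members than in the whole list. A match describes the letters only and does not show binding. The printed stretches run 5′ to 3′ on the strand of the gene, end at or before the start site, and have the match in capitals. Mcm6 lies on the minus strand at chr1:128359706-128359855 with matches starting 110 and 47 bases before the start, and Pola1 on the minus strand at chrX:93632246-93632333 with the match 138 bases before it.
Mcm6: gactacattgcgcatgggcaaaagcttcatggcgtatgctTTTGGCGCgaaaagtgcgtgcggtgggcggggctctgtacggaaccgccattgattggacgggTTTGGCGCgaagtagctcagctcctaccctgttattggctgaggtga
Pola1: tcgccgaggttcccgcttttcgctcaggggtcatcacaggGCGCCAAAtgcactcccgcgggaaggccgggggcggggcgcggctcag

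Of 40 mitosis genes 4 rose and none fell, with a median of 0.30. Plk1, a mitotic kinase, was at 64.4 and 89.5 CPM against 50 and 43.7 CPM (log2 change 0.72, SE 0.16, edgeR adjusted p 0.00988). Cdk1, Birc5 and Aurka rose by 0.63, 0.52 and 0.51, and Mki67 was not called, at 161 and 204 CPM against 193 and 255 CPM. KO replicate 2 lay above replicate 1 for all 4 called genes, and the leave-one-out fits gave 10, 0, 1 and 1 higher. With the length trend removed 5 rose.

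Ribosome biogenesis and Myc partners gave 10 higher and 3 lower of 40, with a median of 0.09. Mycn, the Myc paralog of progenitors, was at 124 and 160 CPM against 89.5 and 46.1 CPM (log2 change 1.06, SE 0.33, edgeR adjusted p 0.0389), and Myc was not called (log2 change -0.15, edgeR adjusted p 0.541). The nucleoplasmin Npm3 was at 186 and 168 CPM against 69.7 and 85.8 CPM (log2 change 1.19, SE 0.15, edgeR adjusted p 0.000524). The Myc antagonists Mnt, Mxd4 and Mga were the 3 that fell, by 0.78, 0.69 and 0.47, and Mga was at 0.08 with the length trend removed. With the removal 4 rose and 3 fell. In the leave-one-out fits 6, 5, 5 and 8 were higher and 1, 1, 4 and 1 lower.

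Of p53 targets 4 of 27 rose and 2 fell, and of apoptosis genes 4 of 28 rose and 1 fell, or 3 and 1 and 3 and 0 after length removal. For apoptosis the leave-one-out fits gave 0, 2, 1 and 2 higher, and for p53 targets 1, 2, 1 and 2 lower. Phlda3, which is induced by p53, was at 210 and 157 CPM against 94.1 and 81 CPM (log2 change 1.06, SE 0.15, edgeR adjusted p 0.00105), while Trp53inp1 fell by 1.03. Among genes that time development through Lin28 and let-7, 1 of 12 rose and 3 fell, and after length removal 1 rose and none fell.

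Imprinted genes showed 4 rises and 4 falls among 27, with a median of 0.01, and 6 of the 8 called members lay in neighbouring pairs. How many of all 27 members lie in such pairs was not counted, so nothing is read from the 6. Peg10, derived from a retrotransposon, was at 17.5 and 20 CPM in the KO and at 2.8 and 2.18 CPM in the WT libraries (log2 change 2.90, SE 0.45, edgeR adjusted p 0.00155), and its neighbour Sgce rose by 2.07. The growth brake Cdkn1c was at 346 and 310 CPM against 131 and 197 CPM (log2 change 1.00, SE 0.22, edgeR adjusted p 0.00968), and Slc22a18 of the same imprinted domain was at least 3.69-fold higher. Zim1 was at 5.09 and 8.05 CPM against 24.4 and 25.2 CPM (log2 change -1.91, SE 0.26, edgeR adjusted p 0.000677), and the adjoining Peg3 fell by 1.44. Plagl1 and Impact, which are in no such pair, fell by 1.07 and 0.50. Igf2 and H19 were not called, with log2 changes of -0.33 and -0.02. After removal of the length trend 2 members were called higher and 4 lower. Sgce, Slc22a18 and Plagl1 no longer passed the threshold then, and a member not called as fitted was called lower. The leave-one-out fits gave 1, 3, 2 and 2 higher and 4, 2, 3 and 3 lower.

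Immediate early genes, which cells switch on shortly after a stimulus, were often higher in the KO libraries. Of 27 members 13 rose and none fell, with a median of 0.75, and with the length trend removed 10 rose and none fell. Egr3 was at 28.8 and 62.7 CPM against 6.25 and 5.77 CPM (log2 change 2.92, SE 0.34, edgeR adjusted p 0.000338). The antiproliferative gene Btg2 was at 156 and 249 CPM against 68.2 and 52.6 CPM (log2 change 1.74, SE 0.22, edgeR adjusted p 0.000504). The AP-1 subunits Fosb, Junb, Fos and Jund rose by 1.13, 1.17, 0.77 and 0.60. Egr1, another factor of the Egr family, lay at 1342 and 2328 CPM against 1345 and 1337 CPM and was not called.

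KO replicate 2 lay above replicate 1 for most members, and the mean log2 level of the list, centred over the 8 libraries, was -0.06 and 0.42 in the KO and -0.56 and -0.48 in the WT libraries. Without KO replicate 2 the list gave 7 higher and 1 lower, without WT replicate 2 it gave 8 higher, and without KO replicate 1 it gave 12 higher. Tissue dissociation also induces these genes, and its part in the result was not tested. When the list's level entered the fit as a covariate, 558 genes were called in place of 3100. In that fit none of the replication genes was called, while 4 of the 26 interferon and MHC genes were. The BMP list then gave 1 higher and 4 lower, the respiratory chain none, and the Wnt list none higher and 3 lower.

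Several immediate early genes hold a CArG box, the site of serum response factor, and the promoters of Egr2 and Zfp36 are printed as the called members with a match. The CArG box was searched on both strands of the same 300 bases and was found in 2 of the 23 members with an entry (8.7%) and in 1.81% of all promoters in the table. Egr2 lies on the plus strand at chr10:67537454-67537543 with the match 72 bases before the start, and Zfp36 on the minus strand at chr7:28379237-28379326 with the match 58 bases before it. Egr2 was at 56 and 137 CPM against 30.1 and 29.9 CPM, and Zfp36, which speeds the decay of short-lived messages, at 145 and 182 CPM against 74.8 and 78 CPM.
Egr2: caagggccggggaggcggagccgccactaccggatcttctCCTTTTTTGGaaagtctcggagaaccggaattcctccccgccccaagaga
Zfp36: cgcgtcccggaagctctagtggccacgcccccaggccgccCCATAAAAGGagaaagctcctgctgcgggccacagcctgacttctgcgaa

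Genes of MHC class II, which present antigens and are best known from immune cells, were higher in both KO libraries. H2-Eb1, at chr17:34305867-34316674, was at 103 and 76.8 CPM in the KO and at 20.2 and 12 CPM in the WT libraries (log2 change 2.47, SE 0.22, edgeR adjusted p 8.3e-05). The invariant chain Cd74 was at 86.6 and 80.8 CPM against 19.9 and 7.84 CPM (log2 change 2.57, SE 0.31, edgeR adjusted p 0.000377). H2-Aa and H2-Ab1 rose by 2.24 and 1.78, with no overlap between groups. Of class I and interferon genes, Irf3 rose by 0.89, and B2m and H2-K1 were not called, so 5 of the 26 tested members of the list rose, none fell and the median was 0.25.

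Of 7 immune markers used as a check 5 could be tested, and none was called higher. The summed level of the 7 was 28.1 and 14.8 CPM in the KO and 35.8 and 34.3 CPM in the WT libraries, none of the 7 was at 0 in all 4 libraries, and Cd68 was lower by 0.96. Genes of myeloid cells outside that check, chosen after their values were seen, were called higher: Mpeg1 by 1.74, Gpr84 by 2.14 and Pilra by 2.15. In the Het-labelled libraries the sum of the 7 markers was 48.3 and 50.5 CPM. The part of immune cells in the rise of MHC class II was not tested. After removal of the length trend 6 members of the interferon and MHC list rose, and leaving out any 1 of the 4 libraries left 4 or 5.

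**Figure D3:**
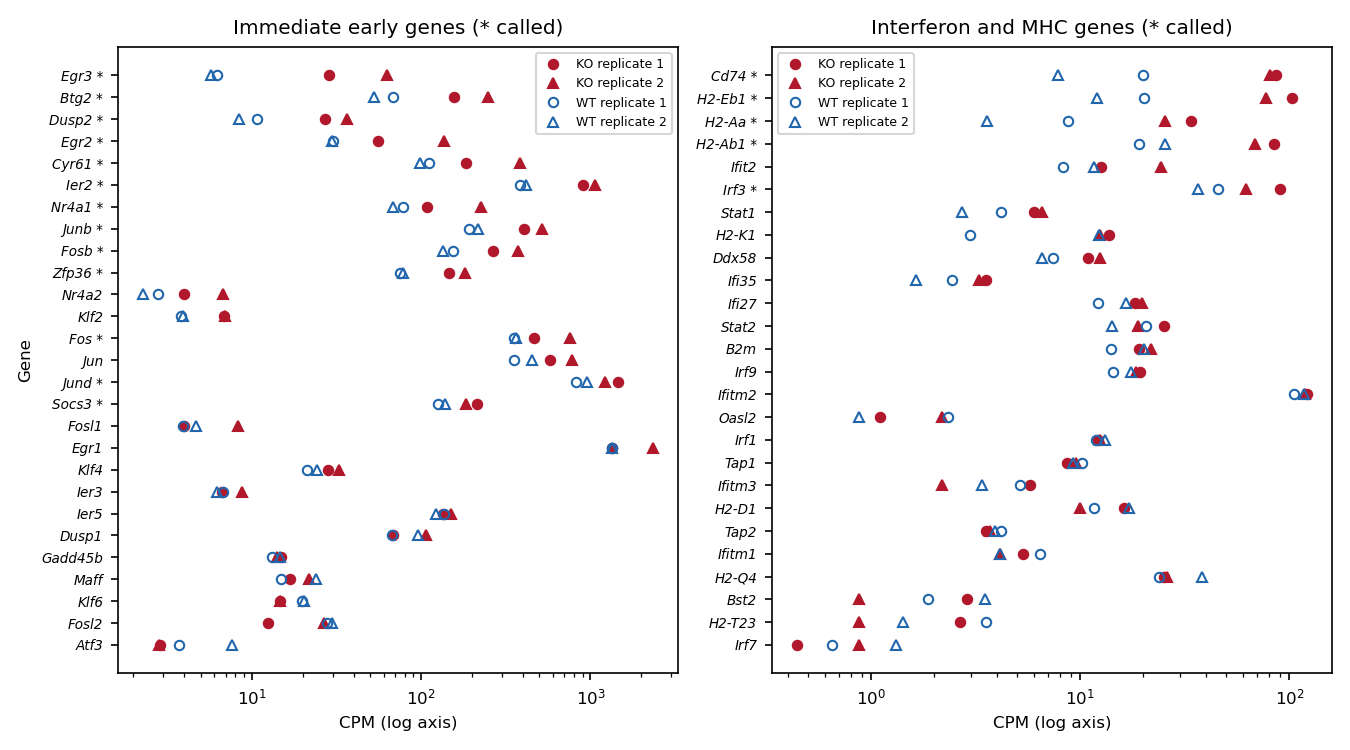
Level in each of the 4 libraries, in CPM on log axes, of 27 immediate early genes (left) and 26 interferon and MHC genes (right), ordered by log2 change with called genes starred. For Cd74, H2-Eb1, H2-Aa and H2-Ab1 both KO libraries (red, filled) lie above both WT libraries (blue, open), and KO replicate 2 (triangles) lies to the right of replicate 1 for Egr3, Egr2 and Cyr61.

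Cholesterol metabolism changed on both of its sides. Of 37 tested members 10 rose, all of them in synthesis or intracellular transport, and 5 fell. Msmo1, a sterol demethylase, was at 15.7 and 23.7 CPM in the KO and at 9.13 and 8.82 CPM in the WT libraries (log2 change 1.13, SE 0.27, edgeR adjusted p 0.0135). Mvd of the mevalonate pathway was at 67.1 and 64 CPM against 36.4 and 34.7 CPM (log2 change 0.88, SE 0.14, edgeR adjusted p 0.00173). Nsdhl, Pmvk, Hmgcs1 and Sqle rose by 0.87, 0.83, 0.80 and 0.66.

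The largest falls of that list were in sterol export. Abca1, the transporter that loads cholesterol onto lipoproteins and that lies at chr4:53030789-53159988, was at 11.7 and 14.6 CPM against 121 and 83.1 CPM (log2 change -2.96, SE 0.27, edgeR adjusted p 0.000101). The transporter Abcg1 was at 1.99 and 3.48 CPM against 15 and 11.8 CPM (log2 change -2.28, SE 0.31, edgeR adjusted p 0.00078). Srebf1 and Mylip, which like both transporters are targets of liver X receptors, fell by 0.66 and 0.55, and Acaca of fatty acid synthesis fell by 0.64. The list's median was 0.27, and with the length trend removed 7 rose and 4 fell. Leaving out KO replicate 2, WT replicate 1 or WT replicate 2 gave 5, 6 and 4 higher with 4, 9 and 2 lower, and with the immediate early gene level as a covariate no member rose and 2 fell.

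The sterol regulatory element is the site through which SREBP factors switch on synthesis genes. The form TCACNCCAC was searched on both strands of the same 300 bases and occurs in 1.44% of all promoters of the table. It was found in 1 of the 25 list members with an entry, too few of the 37 members for a share of the list to be read, and among tested genes with an entry in 1.26% of those called higher and 2.15% of those called lower. Hmgcs1 is printed as the called synthesis gene with a match, on the plus strand at chr13:119690174-119690262 and 137 bases before the start. It was at 79.3 and 109 CPM in the KO and at 56.9 and 51.6 CPM in the WT libraries (log2 change 0.80, SE 0.18, edgeR adjusted p 0.0113).
Hmgcs1: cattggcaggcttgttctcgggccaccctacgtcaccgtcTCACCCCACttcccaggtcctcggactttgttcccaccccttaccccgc

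Lysosome and autophagy genes went the other way. Of 34 members 10 were called lower and none higher, with a median of -0.18. The protease Ctsl, at chr13:64361890-64370772, was at 131 and 132 CPM in the KO and at 262 and 278 CPM in the WT libraries (log2 change -1.04, SE 0.11, edgeR adjusted p 0.000256). The peptidase Tpp1 was at 37.2 and 48.8 CPM against 78.4 and 72.1 CPM (log2 change -0.81, SE 0.14, edgeR adjusted p 0.00327). Grn, Ctsb, Sqstm1 and the initiating kinase Ulk1 fell by 0.51, 0.48, 0.43 and 0.49. The members have a median length of 2305.5 bases, shorter than the tested genes in all, and with the length trend removed the median was -0.31 with 9 lower and 1 higher. Leaving out single KO or WT libraries left between 3 and 5 called lower, and the immediate early gene covariate left 2.

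The CLEAR element, TCACGTGA, is the site of the factor Tfeb in promoters of lysosomal genes and reads the same on both strands. It occurs in 1.12% of all promoters of the table and in 5 of the 27 list members with an entry, again under 80% of the list, and Ctsa and Mcoln1 are the members called lower that hold it. Ctsa, a lysosomal carboxypeptidase, lies on the plus strand at chr2:164833720-164833772 with the match 13 bases before the start. Mcoln1, the calcium channel of the lysosome, lies on the plus strand at chr8:3500433-3500518 with the match 46 bases before it. Ctsa was at 154 and 123 CPM against 183 and 197 CPM, and Mcoln1 at 34.5 and 33.3 CPM against 52.5 and 41.6 CPM.
Ctsa: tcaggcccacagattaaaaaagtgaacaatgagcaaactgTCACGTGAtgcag
Mcoln1: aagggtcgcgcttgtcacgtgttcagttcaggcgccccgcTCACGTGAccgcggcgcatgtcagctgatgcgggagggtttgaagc

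**Figure D4:**
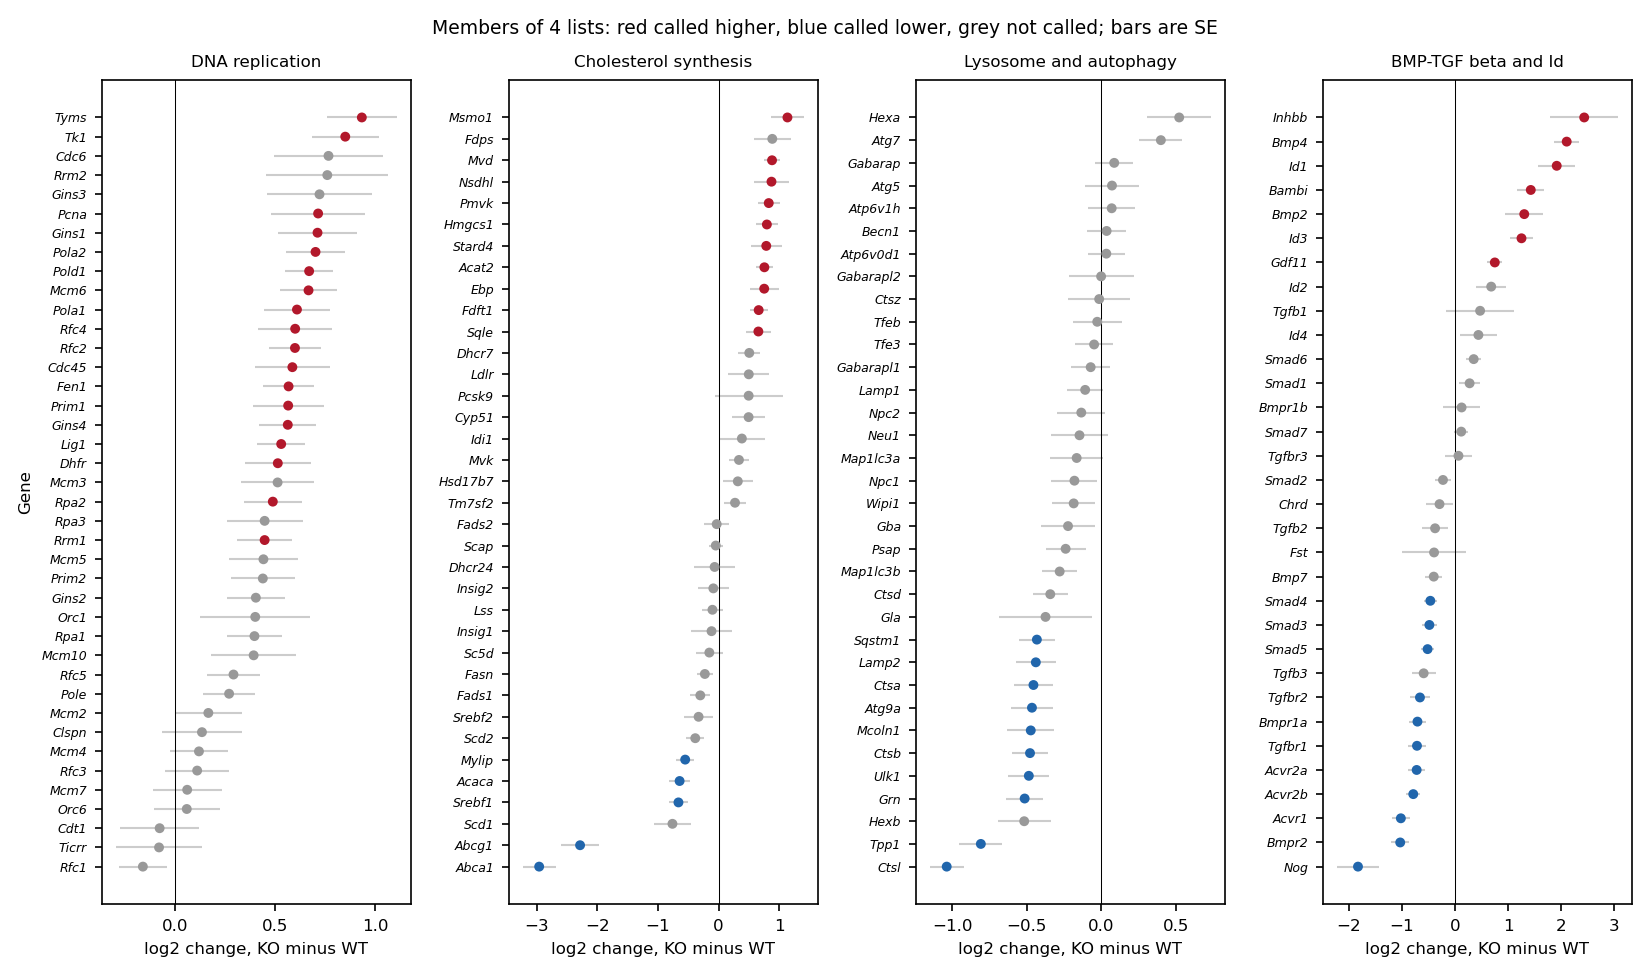
Log2 change, KO minus WT, of the tested members of 4 gene lists that are reported here, with bars of 1 SE; red members were called higher, blue lower and grey not called. Called replication genes all lie right of 0, called lysosome and autophagy genes all lie left of 0, and Abca1 at -2.96 and Abcg1 at -2.28 stand apart in the cholesterol list.

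Hypoxia-responsive genes gave 7 higher and 2 lower of 20, with a median of 0.32 as fitted and 0.31 with the length trend removed. Leaving out any 1 of the 4 libraries gave 4 or 5 higher. Vegfa, the endothelial growth factor, was at 383 and 364 CPM in the KO and at 155 and 195 CPM in the WT libraries (log2 change 1.10, SE 0.14, edgeR adjusted p 0.000519). Ankrd37, Ndrg1 and Ddit4 rose by 1.58, 1.06 and 1.02. The hexokinases went opposite ways, since Hk2 was at 79.5 and 86 CPM against 33.2 and 43.4 CPM (log2 change 1.11, SE 0.24, edgeR adjusted p 0.00821), and Hk1 at 49.2 and 58.3 CPM against 110 and 129 CPM (log2 change -1.16, SE 0.14, edgeR adjusted p 0.000388). Of the 23 glycolysis genes 4 rose and 3 fell, with Pfkl and the glucose transporter Slc2a1 higher by 0.85 and 0.70. The median of that list moved from 0.43 to 0.24 with the length trend removed, when 3 rose and 1 fell. Its leave-one-out fits gave 2, 1, 1 and 9 higher and 2, 1, 2 and 1 lower.

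Of genes of the unfolded protein response 4 of 22 rose and 1 fell, led by Sdf2l1 (1.5) and the factor Xbp1, which was at 43.6 and 52 CPM against 22.2 and 20.7 CPM (log2 change 1.16, SE 0.19, edgeR adjusted p 0.0019). After length removal 2 rose and none fell, and the leave-one-out fits gave 2, 3, 2 and 8 higher. Heat shock chaperones gave 5 higher and none lower of 20, with Hsph1 at 70.4 and 68.1 CPM against 25.8 and 28.7 CPM (log2 change 1.34, SE 0.23, edgeR adjusted p 0.00237). After removal of the length trend 3 chaperones rose and 3 fell. Of amino acid and integrated stress response genes 5 of 27 rose and 2 fell. Both falls were amino acid transporters, Slc7a5 at 56.9 and 79.5 CPM against 142 and 224 CPM (log2 change -1.42, SE 0.26, edgeR adjusted p 0.00338) and Slc7a1 (-1.14). After length removal 2 rose and 1 fell. The leave-one-out fits gave 1, 3, 1 and 3 higher and 1, 2, 5 and 1 lower, so the balance turned without WT replicate 1.

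Solute carriers as a family were called at about the background rate, with 19 of 209 higher and 26 lower, or 15 and 22 with the length trend removed. The leave-one-out fits gave 9, 12, 10 and 9 higher and 12, 24, 18 and 23 lower. Slc12a2, the sodium, potassium and chloride cotransporter, was at 293 and 340 CPM in the KO and at 1031 and 974 CPM in the WT libraries (log2 change -1.67, SE 0.17, edgeR adjusted p 0.000183). The taurine transporter Slc6a6 fell by 1.39 and the amino acid transporter Slc38a4 by 1.37. Slc45a3 was at 101 and 123 CPM against 35.9 and 32.1 CPM (log2 change 1.72, SE 0.16, edgeR adjusted p 0.000116), and the glutamine transporter Slc1a5 rose by 1.67.

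Some programmes moved with gene length as a group. Of 78 tested nuclear genes of the respiratory chain 35 rose and 1 fell, with a median of 0.42, and their median length was 752 bases. Ndufc1 of complex I, 414 bases long, was at 57.8 and 50.5 CPM in the KO and at 24.3 and 28 CPM in the WT libraries (log2 change 1.05, SE 0.18, edgeR adjusted p 0.00269). Cox8a of complex IV was at 391 and 360 CPM against 207 and 273 CPM (log2 change 0.65, SE 0.16, edgeR adjusted p 0.0148). The median of the list was 0.03 when the length trend was removed, and 6 rose and 2 fell. Without KO replicate 1 or WT replicate 1 the fit with length kept called 14 and 13 higher. Ndufc1 was still called at 0.59 and Cox8a was not, at 0.23. Cox7a2l, a factor of supercomplex assembly, was the member that fell as fitted, and it was at -1.16 with the removal.

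The opposite held for the long genes of chromatin remodelling. Of 41 members of SWI/SNF, trithorax and CHD complexes, with a median length of 7507 bases, 20 fell and 1 rose, and the median was -0.42. The methyltransferase Kmt2c, 16820 bases long, was at 82.4 and 92.1 CPM against 155 and 160 CPM (log2 change -0.85, SE 0.15, edgeR adjusted p 0.00318), and the acetyltransferase Crebbp fell by 0.76. When the length trend was removed 2 members fell, none rose and the median was -0.08. Leaving out single libraries left 10 to 18 called lower, with 10 without KO replicate 1 and 12 without WT replicate 2.

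Cytosolic ribosomal proteins are as short as respiratory chain subunits, with a median length of 729.5 bases, but did not rise with them. Of 84 tested genes 4 rose and 2 fell, with a median of 0.07. Rps29 was at 833 and 723 CPM against 486 and 538 CPM (log2 change 0.60, SE 0.13, edgeR adjusted p 0.00804), and Rps3a1 at 750.2 and 739 CPM against 973 and 948 CPM (log2 change -0.37, SE 0.12, edgeR adjusted p 0.0463). With the length trend removed the median was -0.29, with 1 gene higher and 30 lower. With length kept, the leave-one-out fits gave 1, 6, 2 and 4 higher and 1, 0, 2 and 0 lower. Ribosomal protein genes have many near-identical copies in the genome, and how the counting treated them is not given in the sources used here.

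**Figure D5:**
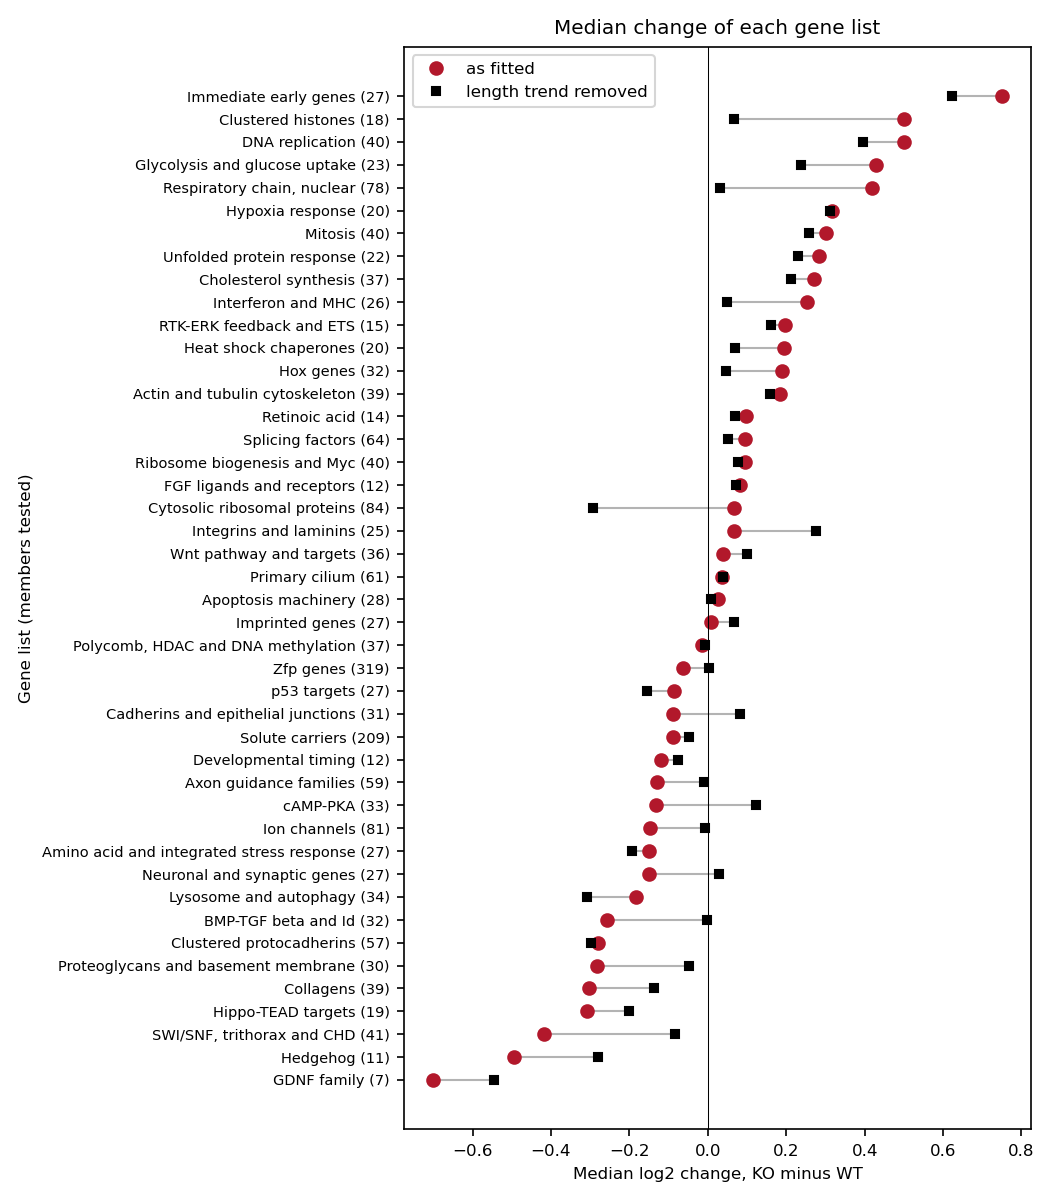
Median log2 change, KO minus WT, of 44 gene lists as fitted (red circles) and with the length trend of each library removed (black squares), with the number of tested members in brackets. Immediate early and DNA replication genes keep medians of 0.62 and 0.40 after removal, while the respiratory chain moves from 0.42 to 0.03 and the SWI/SNF, trithorax and CHD list from -0.42 to -0.08.

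Among regulators of gene silencing and DNA methylation 4 of 37 rose and 6 fell, or 4 and 4 after length removal, and the leave-one-out fits gave 2, 2, 1 and 4 higher and 4, 3, 5 and 4 lower. The demethylase Tet2 was at 25.5 and 26.6 CPM in the KO and at 59.5 and 59.9 CPM in the WT libraries (log2 change -1.20, SE 0.13, edgeR adjusted p 0.000253), Hdac5 fell by 0.89, and Ezh2, the methyltransferase of Polycomb complex PRC2, rose by 0.68. Of 64 splicing factors 12 rose and 11 fell, or 10 and 5 after length removal, and the leave-one-out fits gave 5, 7, 3 and 10 higher and 4, 10, 10 and 4 lower. Mbnl2 was at 34.3 and 40.1 CPM against 79.3 and 76.3 CPM (log2 change -1.06, SE 0.14, edgeR adjusted p 0.000566), and Tra2a rose by 0.90. Esrp2, a splicing factor of epithelia, was at 1.77 and 2.61 CPM against 0.466 and 0.545 CPM, a log2 change of 2.09.

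Of 32 tested Hox genes 5 rose and 4 fell, both as fitted and with the length trend removed, and the leave-one-out fits gave 4, 9, 5 and 5 higher and 4, 2, 4 and 2 lower. Hoxa11, which with its paralogs is required for the metanephric kidney to form, was at 260 and 245 CPM against 140 and 129 CPM (log2 change 0.91, SE 0.13, edgeR adjusted p 0.00104), and Hoxb9, Hoxb8 and Hoxa10 rose by 1.74, 0.96 and 0.71. Hoxd9 was at 72.4 and 61 CPM against 127 and 143 CPM (log2 change -1.01, SE 0.13, edgeR adjusted p 0.0006). Genes whose symbol starts with Zfp gave 12 higher and 36 lower of 319 as fitted and 10 higher and 16 lower with the length trend removed. Their leave-one-out fits gave 3, 14, 13 and 6 higher and 12, 20, 19 and 18 lower. Of 18 tested clustered histone genes 1 rose, and none did with the removal. Histone copies are near-identical and uncertain.

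Matrix and adhesion genes changed in both directions. The laminin chains Lama4 and Lamb1, parts of the basement membrane, rose by 1.53 and 0.81. Lama4 was at 230 and 355 CPM in the KO and at 79.3 and 123 CPM in the WT libraries (SE 0.30, edgeR adjusted p 0.00548). Itga8, the integrin that progenitors need to attract the bud, was at 350 and 423 CPM against 268 and 281 CPM (log2 change 0.49, SE 0.13, edgeR adjusted p 0.0186), while Itga11 and Itgb8 fell by 1.91 and 1.95. Of the 25 integrins and laminins 4 rose and 5 fell, or 8 and 2 with the length trend removed, and the leave-one-out fits gave 5, 2, 2 and 4 higher and 3, 4, 3 and 3 lower.

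Collagens gave 1 rise and 6 falls among 39, or 2 and 3 after length removal, and the leave-one-out fits gave 1, 4, 2 and 1 higher and 6, 3, 7 and 5 lower. The fibril-associated Col9a1 was at 24.4 and 30.3 CPM against 78.7 and 131 CPM (log2 change -1.94, SE 0.31, edgeR adjusted p 0.00199), Col11a1 and Col12a1 fell by 1.60 and 1.53, and the transmembrane Col13a1 rose by 1.41. Of 30 proteoglycan and basement membrane genes 10 fell and 2 rose as fitted, and 4 fell and 3 rose with the length trend removed. The leave-one-out fits of that list gave 4, 10, 11 and 6 lower and 1, 3, 1 and 2 higher. Tnc, a matrix glycoprotein, was at 249 and 319 CPM against 756 and 768 CPM (log2 change -1.42, SE 0.14, edgeR adjusted p 0.000141) and Gpc6 fell by 1.02; both were also called with the removal, whereas Vcan and Hspg2 were not.

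Of 59 axon guidance genes, several of which place the ureteric bud, 5 rose and 13 fell. Sema3d was at 3.99 and 3.48 CPM against 24.9 and 36 CPM (log2 change -3.02, SE 0.43, edgeR adjusted p 0.000978), Ephb2 fell by 2.26 and Robo2, the receptor for Slit ligands, fell by 1.27, from 450 and 519 CPM in the WT to 199 and 203 CPM in the KO libraries. Sema5b and Sema3f rose by 2.18 and 0.92. After removal of the length trend 7 rose and 7 fell, and the leave-one-out fits gave 4, 5, 3 and 5 higher and 8, 11, 13 and 12 lower. None of 57 clustered protocadherins rose and 3 fell, Pcdhb2, Pcdhb13 and Pcdhb14, in a cluster of similar genes. The same number fell after length removal, and the leave-one-out fits gave 1, 2, 2 and 3.

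Cytoskeletal genes gave 9 rises and 3 falls among 39, or 3 and 1 with the length trend removed. In the leave-one-out fits 1, 9, 6 and 7 were higher and 0, 2, 4 and 1 lower. Acta2, the smooth muscle actin, was at 31.7 and 16.1 CPM against 9.51 and 7.95 CPM (log2 change 1.45, SE 0.37, edgeR adjusted p 0.0179). Of 61 genes of the primary cilium, the organelle in which Smo acts, 3 rose and 4 fell, with a median of 0.04, or 2 and 1 after length removal, and the leave-one-out fits gave 1, 2, 2 and 1 higher and 0, 3, 0 and 0 lower. Cadherins and epithelial junction genes gave 2 rises, Cdh3 (1.24) and Crb2 (1.05), and 2 falls among 31, or 2 and 1 after length removal, with 2, 2, 4 and 2 higher and 0, 4, 1 and 2 lower in the leave-one-out fits. Ion channels gave 8 and 11 of 81, or 9 and 8 after length removal, with 5, 5, 4 and 4 higher and 8, 7, 8 and 9 lower in those fits. Neuronal and synaptic genes gave 5 and 5 of 27, or 5 and 3, with 5, 4, 4 and 4 higher and 3, 1, 1 and 3 lower.

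Some of the most abundant genes with at least a 2-fold change fell outside the groups above or were named there only in passing. Pax8, a paired-box factor of nephron formation, was at 371 and 434 CPM in the KO and at 156 and 173 CPM in the WT libraries (log2 change 1.29, SE 0.13, edgeR adjusted p 0.000141). The progenitor gene Cited1 was at 385 and 271 CPM against 173 and 123 CPM (log2 change 1.15, SE 0.22, edgeR adjusted p 0.00424), so a marker of the uncommitted cap and a factor of commitment rose in the same libraries. Cited2, Thsd4, Ier2 and Junb rose by 1.12, 1.17, 1.29 and 1.17. Ltbp1, Foxc1, Hmcn1 and Akap13 fell by 1.01, 1.36, 1.28 and 1.06. Of these, Ltbp1 did not pass the threshold with the length trend removed (log2 change -0.66, edgeR adjusted p 0.0609).

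The levels of some of these genes in the other groups of the series are given from the same scaled table, as means ± SD of 2 libraries and with no test. In the libraries labelled Het, Smo was at 19.2 ± 6.73 CPM, near the KO level although a wild-type allele is labelled, and directions in them are read with that in mind. Emx2 lay at 14.9 ± 0.753 CPM in the KO, 0.661 ± 0.746 CPM in the Het-labelled and 0.718 ± 0.292 CPM in the SmoM2 libraries. For Pou3f3 the levels were 7.8 ± 0.869, 0.17 ± 0.24 and 0.167 ± 0.0911 CPM, and for Lhx1 92.3 ± 42.5, 7.01 ± 3.3 and 5.43 ± 1.31 CPM. The KO libraries were thus the high ones for these 3 nephron factors. Another pattern was seen for Fgf8, which lay at 103 ± 18.6 CPM in the KO, 66.6 ± 3.3 CPM in the Het-labelled and 5.11 ± 1.44 CPM in the SmoM2 libraries. Gfra2 lay at 51.2 ± 4.2, 82.8 ± 10.9 and 1.91 ± 0.242 CPM, and Cd74 at 83.7 ± 4.11, 120 ± 15 and 5.7 ± 1.41 CPM. For these 3 genes the Het-labelled libraries lay on the side of the KO libraries and the SmoM2 libraries on the side of the WT libraries.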

How the data were processed

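RNA of sorted cells was purified, selected by poly(A), fragmented and made into DNA libraries with a low-input kit, per the labels' protocols. The submitters' processing notes name STAR, featureCounts of Subread and mm10; the annotation and the strand setting of the counting are not given in the sources used here. The authors deposited 1 table with a raw count and an RPKM value per gene and library and a gene length, per the file headers. The counts were used, and the RPKM only to scale libraries in an alternative.

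Genes passing edgeR's filterByExpr over the 8 libraries were tested, 13459 of 24539. CPM values were computed here from the counts with TMM scaling. KO and WT were compared with edgeR 4.0.16 (limma 3.58.1, R 4.3.3), a quasi-likelihood fit over all 4 groups with 4 residual degrees of freedom and Benjamini-Hochberg adjustment, at 0.05. An exact permutation test of 2 against 2 libraries cannot go below p 0.333. In a second fit, chosen because short and long genes differed, the trend of each library over log2 gene length was removed by offsets. Alternatives were DESeq2 1.42.0, other scalings and filters, leaving out each library, the 4 libraries alone, the replicate number, sex and immediate early gene level as covariates, thinning, and a correction for GC content and length that was added after the data were seen.

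The script was tested on simulated counts over 13459 genes, where 3.85% of calls were false. With no trend over gene length and far fewer changed genes in the simulation, this rate need not hold for the data. Genes were named by 3 rules: the 12 largest changes in each direction among called genes without overlap between groups whose log2 CPM averaged 1 or more, the 10 most abundant called genes in each direction with at least a 2-fold change and no overlap, and up to 5 called members of each list in each direction. Y-linked genes and Xist were left out. A few genes that met these rules are not reported here, though they stay in the counts and medians. Other list members are named where their place in the pathway is described, and were chosen after their values were seen. Members and lists were chosen with earlier results of these data known. Of 45 lists, genes of the mitochondrial genome were not analysed here. Gene positions and promoter sequences come from RefSeq for GRCm38, the build mm10, and GC content from transcripts of GENCODE vM21. Of the tested genes 79.2% had a promoter entry.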

Additional observations from a re-analysis of the deposited data

How the results depend on the processing

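Of 3100 called genes the count was within 1.5 times with DESeq2 (2790), other size factors, scaling to the deposited RPKM totals (3124, of which 59.5% were higher against 50.4%), other filters, the 4 libraries alone (2582), a sex covariate (3077), thinning (2804) and length removal (2101). Counts of some gene groups moved by more than that with the sex covariate. The unfolded protein response then gave 13 of 22 higher and 1 lower, glycolysis 9 and 1 of 23, and ribosomal proteins 10 and 0 of 84. Other groups lost calls, such as mitosis with 2 higher and Wnt with 4 higher and 8 lower. With the immediate early gene level as a covariate 558 genes were called, 274 higher and 284 lower, a fit in which the covariate itself differs between groups. Leaving out 1 library gave 1330 to 2953 called, 689 to 1502 higher and 641 to 1580 lower. Each range is lowest without KO replicate 1, and without WT replicate 1 and WT replicate 2 the counts were 2006 and 1925. Correcting for GC content and length left 1025 called higher. With 5 length classes the median of the longest was -0.31. With the replicate number as a block 3343 were called; the numbers did not pair the samples (the replicate differences of the groups correlated across genes with r 0.082). Direction turned with the immediate early gene covariate for Cyr61 (-0.034), Nsdhl (-0.043), Pcna (-0.12) and Zfp970 (0.15), with length removal for Mga (0.077) and Pkd1 (0.02), and with the GC and length correction for Mga (0.15). The cause was not tested. Of 324 named genes the call was lost for 89 with length removal, 239 with the immediate early gene covariate and 115, 96, 95 and 88 without KO replicate 1, KO replicate 2, WT replicate 1 and WT replicate 2. The KO totals limit what can be seen of genes under 0.664 CPM.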
